A study of Mus musculus with 62 samples.

Results

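Vascular and meningeal genes were followed across brain regions of the mouse: the prefrontal cortex (PFC), the nucleus accumbens (NAc) and the hypothalamic clock, the suprachiasmatic nucleus (SCN). The 8 genes were 4 of endothelial cells (Cldn5, Flt1, Tek and Pecam1), 2 of the mural cells that wrap vessels (Pdgfrb and Vtn) and 2 of the meninges (Myoc and Dcn). They were chosen by name, and all 8 had a row among the 12483 genes of the count tables, in each region. There were 26 NAc, 19 SCN and 17 PFC libraries, taken from 26 mice, each library from a single animal. All mice were C57BL/6J, male and female, and brains were collected at ZT6, which is 6 h after lights on, about 4 weeks after circadian rhythm disruption (CRD) or a control procedure ended. In the study's methods CRD was a run of 12 h shifts of the light cycle every 3 days in adolescence, from P28 to P37, and controls had matched cage handling without shifts. A library's label holds its region and mouse but not whether that mouse had CRD, nor its sex, so every value is over all libraries of a region, and only regions were compared. Libraries were made from 10 ng of total RNA of tissue punches.

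Endothelial cells line the brain's vessels and are sealed to each other by tight junctions, which form the blood-brain barrier. Pericytes and smooth muscle cells surround them and are recruited through platelet-derived growth factor, while angiopoietins and vascular endothelial growth factor (VEGF) act on receptors of the endothelium. The meninges cover the brain surface with fibroblasts and their collagen-rich matrix, and beneath them lies the glia limitans, a sheet of astrocyte endfeet. A punch of brain tissue can hold all of these cells, together with the far more numerous neurons and glia.

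Total counts per library were 16496666 to 35389742 for SCN, 28879724 to 60009482 for NAc and 31216225 to 50333579 for PFC libraries. Mouse numbers fell into a run up to J1021 and a run from J1140, and results are also given within each run, since what the runs stand for is not in the labels. Mitochondrial ribosomal RNA (mt-Rnr1 and mt-Rnr2) took 20.5 to 51.6% of SCN counts, 39.0 to 69.3% of NAc counts and 42.0 to 59.1% of PFC counts. Other genes like ribosomal RNA took a median of 16.2% of SCN, 2.52% of NAc and 3.79% of PFC counts, with 13.3% in NAc J1159. Median counts of nuclear protein-coding genes were 8347729 for the SCN, 17105902 for the NAc and 18933252 for the PFC. Region markers fell as the labels say, with Avp, Six6 and Lhx1 in the SCN table, a median of 319 CPM (a gene's counts scaled to a fixed library total) for the striatal gene Ppp1r1b in the NAc and a median of 609 CPM for the cortical gene Slc17a7 in the PFC. In the SCN, J1199 and J1140 stood apart with 134 and 66.9 CPM of Ppp1r1b, where the next library had 9.87 CPM. In the NAc, J1199 stood apart with 340 CPM of Slc17a7 against a median of 64.6 CPM. Results that rest on these libraries are given with and without them. The SCN was counted in a separate table, so that region and table cannot be told apart in its comparisons.

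In the GENCODE M21 annotation of GRCm38 all 8 genes are protein-coding, and counts were taken over their exons. Cldn5 (ENSMUSG00000041378) lies at chr16:18776847-18778262 on the plus strand, Flt1 (ENSMUSG00000029648) at chr5:147561604-147726011 on the minus strand, Tek (ENSMUSG00000006386) at chr4:94739289-94874976 on the plus strand and Pecam1 (ENSMUSG00000020717) at chr11:106654217-106750628 on the minus strand. Pdgfrb is ENSMUSG00000024620. Vtn (ENSMUSG00000017344) lies at chr11:78499091-78502324, Myoc (ENSMUSG00000026697) at chr1:162639155-162649693 and Dcn (ENSMUSG00000019929) at chr10:97479609-97518143, all on the plus strand. Exon lengths ran from 1416 bp in Cldn5 to 13504 bp in Flt1, around a median of 4778 bp over the genes counted with NAc and PFC. Exons of Myoc overlap those of Myocos on the opposite strand, and without strand reads of the pair cannot be told apart.

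Promoters are shown for 4 members whose levels moved differently from library to library: Flt1 and Tek, which rose and fell together, Cldn5, which moved with neither, and Myoc, which varied most. The RefSeq promoter table used here matched 5 of the 8 members on GRCm38.p6, and each sequence is the 250 bases before the annotated start, 5′ to 3′ on the strand of the gene. Capitals mark GGAA or its reverse complement TTCC, the core that ETS factors of endothelial cells bind, and TATAAA, the TATA box.
Cldn5 (chr16:18776597-18776846, plus strand): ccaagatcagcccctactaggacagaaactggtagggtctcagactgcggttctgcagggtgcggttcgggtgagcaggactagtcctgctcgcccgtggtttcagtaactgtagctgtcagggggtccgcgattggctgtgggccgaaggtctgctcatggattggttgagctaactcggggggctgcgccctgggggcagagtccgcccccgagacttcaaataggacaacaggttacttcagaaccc
Flt1 (chr5:147726012-147726261, minus strand): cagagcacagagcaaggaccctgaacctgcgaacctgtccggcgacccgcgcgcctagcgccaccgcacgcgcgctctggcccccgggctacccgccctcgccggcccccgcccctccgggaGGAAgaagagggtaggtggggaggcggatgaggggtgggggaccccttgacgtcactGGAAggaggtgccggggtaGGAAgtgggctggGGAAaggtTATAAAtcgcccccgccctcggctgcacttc
Tek (chr4:94739039-94739288, plus strand): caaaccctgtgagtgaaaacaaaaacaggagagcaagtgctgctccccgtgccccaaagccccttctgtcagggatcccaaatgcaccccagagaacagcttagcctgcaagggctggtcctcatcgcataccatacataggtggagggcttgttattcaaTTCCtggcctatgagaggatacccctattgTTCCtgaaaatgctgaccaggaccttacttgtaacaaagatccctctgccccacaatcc
Myoc (chr1:162638900-162639149, plus strand): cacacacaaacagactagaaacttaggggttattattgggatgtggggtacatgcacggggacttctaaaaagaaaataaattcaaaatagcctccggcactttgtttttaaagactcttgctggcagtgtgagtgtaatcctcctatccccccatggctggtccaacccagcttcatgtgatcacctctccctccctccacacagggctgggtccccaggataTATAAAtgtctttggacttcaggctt

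On both strands, GGAA was found 4 times in the Flt1 window, 2 times in the Tek window and in neither the Cldn5 nor the Myoc window. Of 27025 promoters of the same length, 93.4% held it, with a median of 3 matches. TATAAA began 31 bases before the start of Flt1 and 26 bases before that of Myoc, and 13% of all promoters held it. The circadian E-box CACGTG was in none of the 4 windows and in 6.05% of all promoters. These are matches of letters and say nothing of which factors bind.

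Levels were first compared per kilobase of exon, as medians over libraries. In the PFC the order was Vtn with 12.3 CPM per kb, Cldn5 with 9.10, Myoc with 4.73, Flt1 with 2.21, Pdgfrb with 2.05, Tek with 1.79, Pecam1 with 1.29 and Dcn with 0.662 CPM per kb. The NAc and the SCN kept Vtn and Cldn5 on top, with 9.87 and 7.49 CPM per kb in the NAc and 10.7 and 8.51 CPM per kb in the SCN. Myoc changed place, with 0.0979 CPM per kb in the NAc, the lowest of the 8 there, and 2.81 CPM per kb in the SCN. Each region's median for the other 5 genes lay between 0.304 CPM per kb, of Dcn in the NAc, and 2.36 CPM per kb, of Flt1 in the NAc. All further levels are CPM of the whole gene, scaled with TMM factors within each table.

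**Figure D1:**
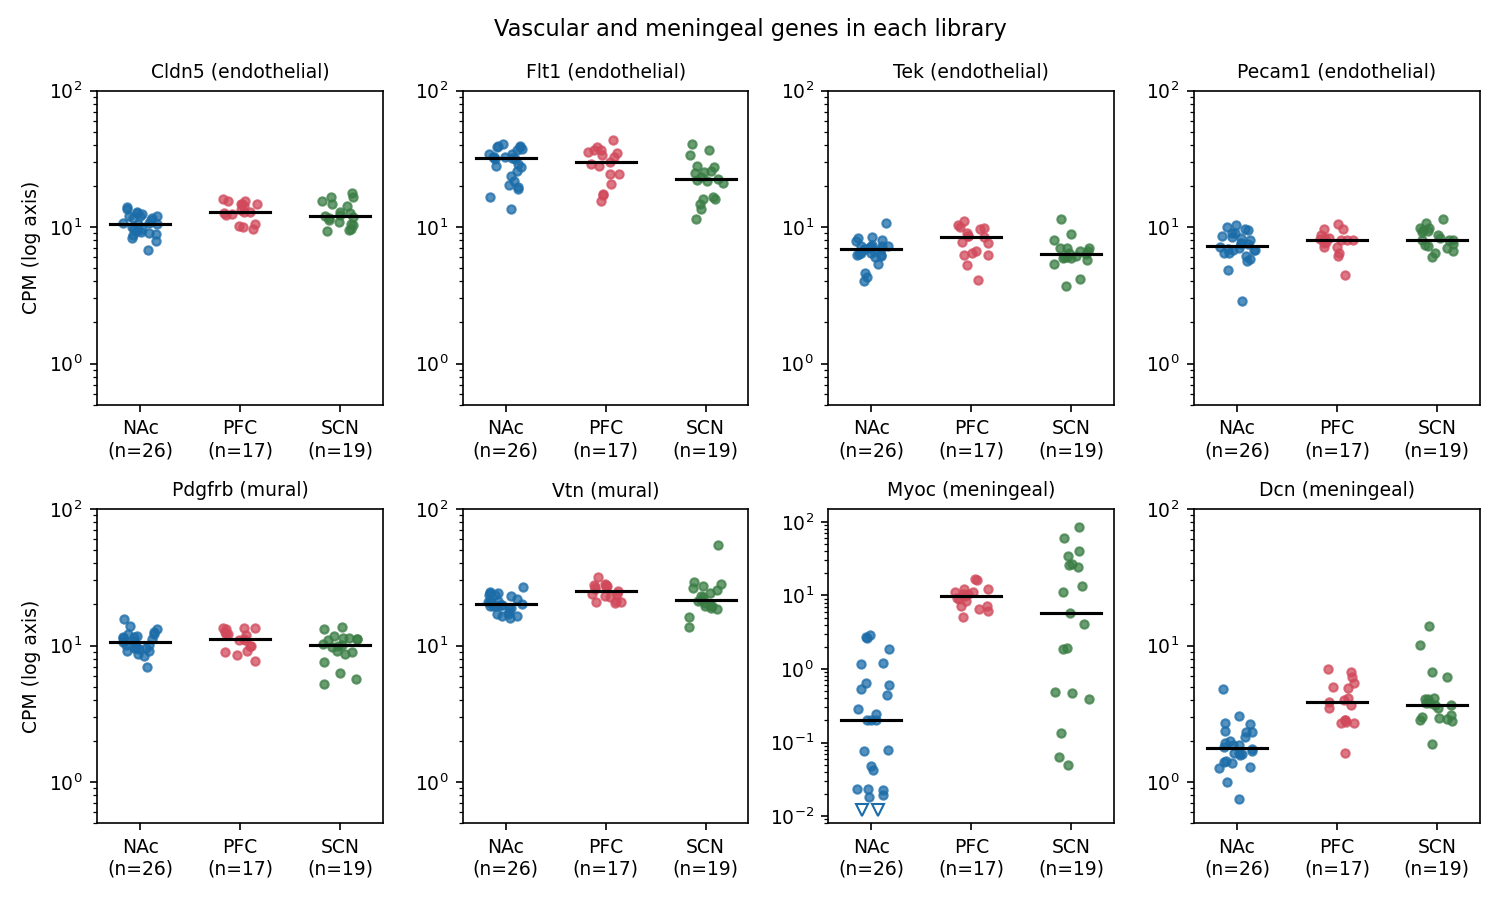
CPM of each gene in every library on a log axis, by region, with a bar at the median and open triangles for the 2 NAc libraries with 0 counts of Myoc. Cldn5, Flt1, Tek, Pecam1, Pdgfrb and Vtn overlap between regions, the PFC libraries of Myoc sit from 5.13 to 16.6 CPM above all NAc libraries, and the SCN libraries of Myoc spread from 0.0493 to 84.6 CPM.

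Myoc was the gene with the widest range. Myoc encodes myocilin, a secreted glycoprotein known from the eye's outflow tissue and also made by astrocytes of the brain surface. In the PFC (n = 17) its lowest, median and highest levels were 5.13, 9.81 and 16.6 CPM. In the NAc (n = 26) they were 0, 0.203 and 2.92 CPM, with 3 counts or fewer in 11 libraries and 0 counts in 2 of them. No NAc library reached the lowest PFC library, and the level was lower in the NAc in 17 of the 17 mice that had both. The difference was -3.91 ± 0.40 on the log2 scale (± SE, 15.0-fold; edgeR quasi-likelihood test, Benjamini-Hochberg adjusted p = 9.6e-12). Myoc was at or above 1 CPM in all 17 PFC libraries and in 6 of 26 NAc libraries, so that it passes a filter on low values at that level mostly through the PFC, where it is high. With the mouse as a block it was -4.80, against -4.12 in the same 17 mice without it.

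Ranges that do not overlap were found for 9.50% of all genes, and for 4.67% with the NAc as the lower region. The NAc was lower in all 17 mice for 11.6% of genes. Among mice up to J1021 the Myoc difference was -4.12, and among mice from J1140 it was -3.75. Without NAc J1199, the library with the highest NAc level, it was -4.16.

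In the SCN (n = 19) Myoc ran from 0.0493 CPM in J1198 (1 count) to 84.6 CPM in J965 (1951 counts), with a median of 5.82 CPM. J1198, J1160, J1013, J1018, J1159 and J1017 were below 1 CPM, and 9 libraries were at or above 10 CPM, so the SCN libraries lay on both sides of all PFC libraries. The SD of log2 CPM was 3.12 for the SCN, 1.98 for the NAc and 0.46 for the PFC, and only 0.0083% of the SCN genes and 0.017% of the NAc genes had a larger one. High levels in the SCN did not always come from mice with high levels elsewhere, since J965, highest in the SCN, had 1 count in the NAc, and J1177, with 39.9 CPM in the SCN, had 0 counts there. The SCN exceeded the NAc by 4.49 ± 0.54 (log2, edgeR adjusted p = 2.6e-11) and differed from the PFC by 0.59 ± 0.52 (adjusted p = 0.30; 95% interval -0.42 to 1.61). With the mouse as a block in the 12 mice with both, the difference to the PFC was -1.10 (adjusted p = 0.33), so that its sign turned with the block.

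Dcn, which encodes the matrix proteoglycan decorin of fibroblasts, differed in the same direction between the NAc and PFC and by less. Its lowest, median and highest levels were 0.754, 1.78 and 4.83 CPM in the NAc and 1.64, 3.87 and 6.73 CPM in the PFC. The ranges overlapped, yet the NAc was lower in 17 of 17 mice. The difference was -1.07 ± 0.16 (2.09-fold; edgeR adjusted p = 9.9e-08), with -0.89 among mice up to J1021 and -1.23 among mice from J1140. In the SCN, Dcn ran from 1.89 to 14 CPM (median 3.67 CPM), and the highest library was J1199. The SCN exceeded the NAc by 1.01 ± 0.18 (edgeR adjusted p = 7.2e-07) and by 0.80 without J1199 and J1140. Among mice up to J1021 that call was lost, at 0.36 (adjusted p = 0.22), and among mice from J1140 the difference was 1.39. Against the PFC the SCN difference was -0.056 (95% interval -0.43 to 0.32), which was not called. In bulk tissue, fewer cells of a type and less RNA per cell cannot be told apart.

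The 6 vascular genes differed less between the NAc and PFC than Myoc and Dcn did. A gene was called at an adjusted p under 0.05 over all genes and a fold change of at least 1.2. On that rule 4 of the 8 members were called, all lower in the NAc (Cldn5, Vtn, Myoc and Dcn), where 45.4% of all 11569 genes were called, 21.7% of all as lower and 23.7% of all as higher in the NAc. The median difference of all genes was 0.016 on the log2 scale.

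Cldn5 encodes claudin-5, the main tight junction protein of brain endothelium. It ran from 6.84 to 14 CPM in the NAc (median 10.6 CPM) and from 9.61 to 16 CPM in the PFC (median 12.9 CPM). The ranges overlapped and the NAc was lower in 12 of 17 mice. The difference was -0.30 ± 0.075 (1.23-fold; edgeR adjusted p = 0.00051), with -0.35 up to J1021 and -0.28 from J1140. In the SCN, Cldn5 ran from 9.32 to 17.6 CPM (median 12.1 CPM), which differed from the NAc by 0.022 (95% interval -0.13 to 0.18). Against the PFC the SCN difference was -0.28 ± 0.086 (edgeR adjusted p = 0.0024), and with the mouse as a block that difference was -0.25 (adjusted p = 0.045), under the fold change of 1.2.

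Flt1 encodes VEGF receptor 1, which binds VEGF-A and placental growth factor. It ran from 13.5 to 40.7 CPM in the NAc (median 31.8 CPM), from 15.5 to 43.1 CPM in the PFC (median 29.8 CPM) and from 11.5 to 40.5 CPM in the SCN (median 22.4 CPM). No difference between the NAc and PFC was called (0.028, 95% interval -0.22 to 0.27; edgeR adjusted p = 0.86), and 9 of 17 mice had the lower level in the NAc. The SCN was lower than the NAc, with -0.59 ± 0.13 (edgeR adjusted p = 4.7e-05), and lower than the PFC, with -0.57 ± 0.14 (adjusted p = 0.00031). Among mice from J1140 the difference to the PFC was -0.33 (adjusted p = 0.085). Flt1 and Cldn5, both endothelial, had different orders of median level: PFC, SCN and NAc for Cldn5, and NAc, PFC and SCN for Flt1. In the Flt1 order the NAc and PFC did not differ beyond their spread, and in the Cldn5 order the SCN and NAc did not.

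Tek encodes TIE2, the receptor of the angiopoietins. Its medians were 6.90 CPM for the NAc, 8.42 CPM for the PFC and 6.36 CPM for the SCN, and its ranges of 4.01 to 10.7, 4.12 to 11 and 3.72 to 11.4 CPM nearly coincided. The NAc to PFC difference was -0.24 ± 0.099 (edgeR adjusted p = 0.033), which was under a fold change of 1.2 and not called. Up to J1021 it was -0.46 and was called, and from J1140 it was -0.067. The SCN was lower than the PFC, with -0.52 ± 0.11 (adjusted p = 2.8e-05), and lower than the NAc, with -0.27 ± 0.10 (adjusted p = 0.011). Among mice from J1140 both calls were lost, at -0.24 and -0.18.

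Pecam1 encodes CD31, an adhesion molecule of endothelial contacts that platelets and leukocytes also carry. It had medians of 7.32, 8.02 and 8.05 CPM in the NAc, PFC and SCN and was called in none of the 3 comparisons. Its differences were -0.083 for the NAc minus the PFC (95% interval -0.28 to 0.11), -0.057 for the SCN minus the NAc (-0.24 to 0.12) and -0.14 for the SCN minus the PFC (-0.34 to 0.057).

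Of the mural genes, Pdgfrb encodes the receptor for PDGF-B through which pericytes are recruited, and Vtn encodes vitronectin, a matrix and plasma protein that brain pericytes make. Pdgfrb had medians of 10.7 CPM for the NAc, 11.2 CPM for the PFC and 10.2 CPM for the SCN, and its difference between the NAc and PFC was -0.054 (95% interval -0.20 to 0.095; edgeR adjusted p = 0.55). Up to J1021 it was -0.28 and was called, and from J1140 it was 0.11. A test of that difference between the runs of mice did not pass (edgeR interaction, adjusted p = 0.17; 0 of 11569 genes passed at an adjusted p of 0.05, and 2279 had an unadjusted p under 0.05). The SCN was lower in Pdgfrb than the NAc (-0.36 ± 0.086, edgeR adjusted p = 0.00015) and than the PFC (-0.42 ± 0.094, adjusted p = 6.9e-05).

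Vtn ran from 15.9 to 26.7 CPM in the NAc (median 20.03 CPM) and from 20.6 to 31.8 CPM in the PFC (median 24.9 CPM). The NAc was lower in 16 of 17 mice, and 14 of 26 NAc libraries were below the lowest PFC library. The difference was -0.29 ± 0.060 (1.22-fold; edgeR adjusted p = 6.1e-05), with -0.31 up to J1021 and -0.27 from J1140. In the SCN, Vtn had a median of 21.6 CPM and a highest level of 54.5 CPM, in J1199, where the next library had 29.1 CPM. The SCN minus NAc difference was -0.023 (95% interval -0.19 to 0.15), and the SCN was lower than the PFC with -0.31 ± 0.095 (adjusted p = 0.0028) and with -0.42 without J1199 and J1140. Among mice from J1140 the difference to the PFC was -0.29 (adjusted p = 0.069).

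Counted over the 8 members, the SCN minus NAc comparison called 5, of which Flt1, Tek and Pdgfrb were lower in the SCN and Myoc and Dcn higher. The SCN minus PFC comparison called 5 as well, all lower in the SCN (Cldn5, Flt1, Tek, Pdgfrb and Vtn). Over the 11133 genes shared by the tables, 64.1% were called between the SCN and NAc, 33.1% as higher and 31.0% as lower in the SCN, and 64.7% between the SCN and PFC, with 33.7% higher and 31.0% lower. These comparisons share the SCN libraries, and each pair of the 3 comparisons shares a region.

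**Figure D2:**
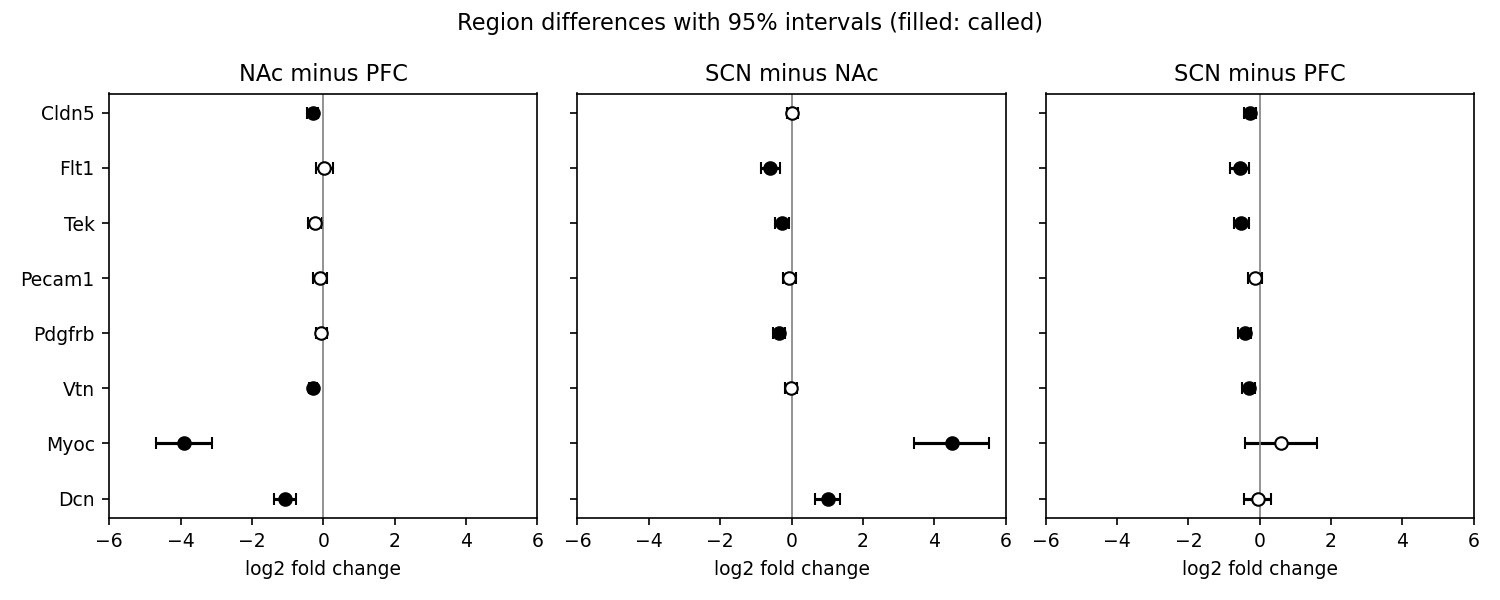
log2 fold changes of the 8 genes in the 3 comparisons of regions, with 95% intervals and with filled points for genes that were called. Myoc stands at -3.91 for the NAc minus the PFC and at 4.49 for the SCN minus the NAc, while the vascular genes lie between -0.59 and 0.028 in all 3 panels.

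Within each library the summed counts of Myoc and Dcn were set over those of Cldn5 and Flt1, as a log2 ratio that does not depend on the scaling. Its lowest, median and highest values were -5.29, -4.18 and -2.82 in the NAc and -2.50, -1.60 and -0.80 in the PFC. No NAc library reached a PFC library in this sum, while the single-gene ratios overlapped. Log2 Myoc over Cldn5 reached -1.22 in NAc J1199 and fell to -1.53 in PFC J1013, and log2 Dcn over Cldn5 ran from -3.96 to -1.26 in the NAc (median -2.58) and from -3.16 to -0.71 in the PFC (median -1.88). In the SCN the summed values were -4.10, -1.84 and 1.23, so that some SCN libraries lay in the NAc range and others above every PFC library. Myoc over Dcn alone had a median of 1.30 with an SD of 0.29 in the PFC and a median of 0.42 with an SD of 3.14 in the SCN. In the SCN that ratio ran from -5.52 to 4.53, so that either gene could be the higher one.

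Of the PFC libraries, those with more Myoc also held more Dcn. Across the 17 PFC libraries the Pearson r of log2 CPM was 0.84 (Spearman rho 0.82; two-sided permutation test, p = 2e-05, adjusted p = 0.00048 over 24 relations of members). When the 2 libraries farthest from the median of Myoc were left out, r was 0.74. Up to J1021 it was 0.85 (adjusted p = 0.20, exact permutation test) and from J1140 0.91 (adjusted p = 0.0034, permutation test). In the SCN the same relation had r = 0.37 (rho 0.18, adjusted p = 0.46, permutation test), and in the NAc r = 0.17 (rho 0.17, adjusted p = 0.81). In the SCN, high Myoc occurred at low and at high Dcn: J965 had 84.6 CPM of Myoc with 3.64 CPM of Dcn, and J1199 had 34.4 CPM of Myoc with 14 CPM of Dcn.

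**Figure D3:**
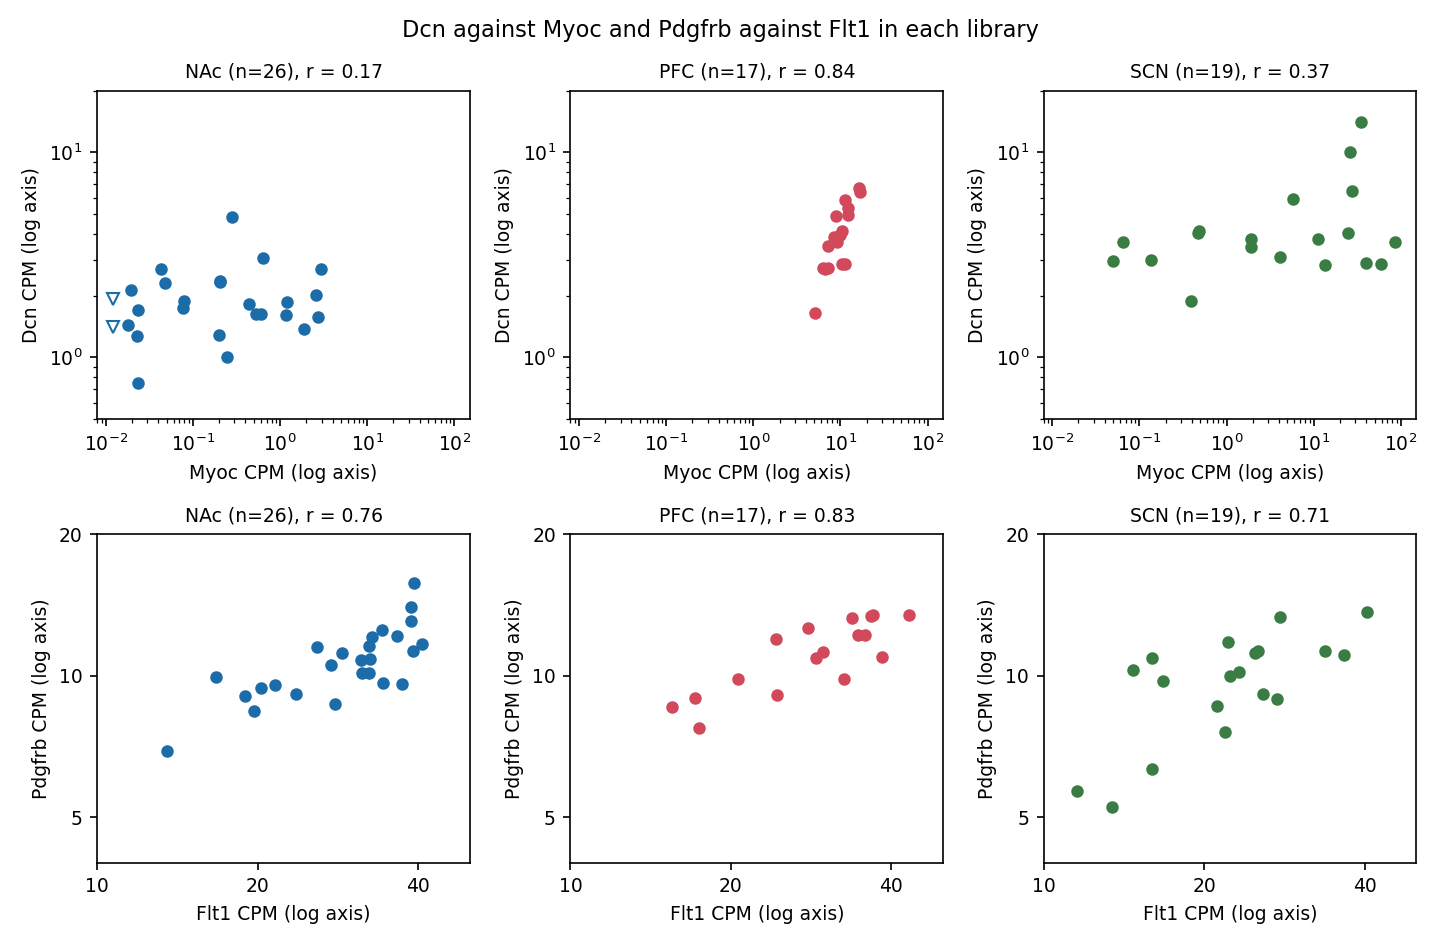
Dcn against Myoc (upper row) and Pdgfrb against Flt1 (lower row) in CPM on log axes, with 1 point per library, Pearson r of log2 CPM above each panel and open triangles for NAc libraries with 0 counts of Myoc. Myoc and Dcn lie along a line in the PFC (r = 0.84) and not in the SCN (r = 0.37) or NAc (r = 0.17), while Flt1 and Pdgfrb rise together in all 3 regions.

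No relation of Cldn5 with Flt1, Tek or Pecam1 passed in any region. Its r with Flt1 was -0.24 for the NAc, 0.21 for the PFC and -0.16 for the SCN (adjusted p from 0.79 to 0.81, permutation test), and its r with Tek and Pecam1 lay between 0.016 and 0.41. Cldn5 and Myoc were inversely related in the NAc (r = -0.66, rho -0.57, adjusted p = 0.0031), where 11 of 26 libraries had 3 counts of Myoc or fewer. Without J1199, which had the lowest Cldn5 and the highest Myoc of the NAc, r was -0.60 (adjusted p = 0.019), and when the 2 libraries farthest from the median of Cldn5 were left out it was -0.60 (adjusted p = 0.029). Up to J1021 r was -0.55 (adjusted p = 0.52) and from J1140 it was -0.74 (adjusted p = 0.026). In the PFC and SCN the same pair had r = -0.011 and 0.062. Of the 24 relations, 2 passed, this and that of Myoc and Dcn in the PFC.

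Flt1 moved instead with Tek, Pecam1 and Pdgfrb, pairs that were examined after the first relations had been seen. Its r with Pdgfrb was 0.76 for the NAc, 0.83 for the PFC and 0.71 for the SCN, its r with Tek was 0.55, 0.88 and 0.74, and its r with Pecam1 was 0.74, 0.81 and 0.37. Of these 9 relations 8 passed (adjusted p from 9e-05 to 0.0035, permutation test), and Pecam1 in the SCN did not (adjusted p = 0.11). The same genes fell where mitochondrial ribosomal RNA took more of the counts. In the NAc the r with that percentage was -0.84 for Flt1 (rho -0.86, adjusted p = 0.00012), -0.77 for Pdgfrb (adjusted p = 0.00012) and -0.70 for Pecam1 (adjusted p = 0.00056), against 0.18 for Cldn5 (adjusted p = 0.57, permutation test). Up to J1021 and from J1140, the NAc values were -0.87 and -0.82 for Flt1, both passing, -0.88 and -0.51 for Pdgfrb and -0.78 and -0.39 for Pecam1, of which those from J1140 did not pass. The r was -0.69 for Tek in the PFC and -0.62 and -0.63 for Flt1 and Pdgfrb in the SCN, and 6 of 24 such relations passed. When the 2 libraries farthest from the median percentage were left out, Tek in the PFC (-0.57, adjusted p = 0.099) and Flt1 in the SCN (-0.41, adjusted p = 0.24) no longer passed, so these rest on those libraries. Within a run of mouse numbers neither these nor Pdgfrb in the SCN passed (adjusted p from 0.062 to 0.67, permutation test).

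After a straight line on that percentage was taken off, 5 of the 9 relations of Flt1 remained past the threshold. Those of the NAc had r = 0.40 with Tek, 0.40 with Pecam1 and 0.33 with Pdgfrb, and none of these passed (adjusted p = 0.056, 0.056 and 0.095, permutation test), while the PFC values were 0.81, 0.75 and 0.76. The 100 genes most like Flt1 over the NAc and PFC libraries had a median exon length of 8783 bp and the 100 most like Cldn5 one of 3018 bp, beside a median of 4778 bp over all rows. In the PFC alone these lengths were 7691 and 4505.5 bp, so that the genes most like Cldn5 were there near the median of all rows, and in the NAc alone they were 8618.5 and 2482.5 bp. The part of RNA quality or of gene length in these relations was not tested. With the percentage as a covariate, the SCN minus NAc difference of Flt1 became -1.19 and that of Pecam1 -0.33, the latter then called (edgeR adjusted p = 0.0044).

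Whether a level went with the mouse or with the punch was asked by setting the NAc against the PFC of the same 17 mice. For the 8 genes r lay between -0.30 for Pdgfrb and 0.27 for Vtn, and 0 of 8 relations passed, at an adjusted p (0.92 or higher) or an unadjusted p under 0.05 (permutation test). For Myoc r was -0.24, with -0.077 up to J1021 and -0.44 from J1140. For Dcn it was 0.12, with 0.74 up to J1021 and -0.33 from J1140, and for Vtn it was 0.64 and 0.079 within these runs of 7 and 10 mice, where 0 of these relations passed (lowest adjusted p = 0.43, permutation test).

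The genes whose levels were most like those of Myoc differed by region. Over the SCN libraries (n = 19) these were Gfap (r = 0.85), Id1 (0.82), Aqp4 (0.82), Slc7a2 (0.80) and Padi2 (0.80), of which Gfap encodes an astrocyte filament and Aqp4 the water channel of astrocyte endfeet. Gfap, Slc7a2, Id1 and Aqp4 were still the top 4 without J1199 and J1140. Over the NAc and PFC libraries (n = 43, region means taken off) they were Ranbp3l (0.64), Col1a2 (0.61), Trhde (0.61), Thbs2 (0.59) and Nars (0.57), where Col1a2 is a chain of collagen type I. In the PFC alone, looked at afterwards, Fbln1 (0.93) and Col1a2 (0.87), both of fibroblast matrix, came first, and in the NAc alone Trhde (0.67), Ranbp3l (0.66), Sf3a3 (0.66), Wdr11 (0.64) and Ddx3x (0.64) did, none of them in the fibroblast list. For Dcn over the NAc and PFC libraries they were Tmod3 (0.65), Efemp1 (0.62), Tgfbr3 (0.60), AI987944 (0.59) and Thbd (0.59).

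In the SCN, Dcn was most like Foxp1 (0.88), Cep83 (0.87), Lzts3 (0.84), Parp1 (0.84) and Pcp4l1 (0.82). Without J1199 and J1140, which carried striatal genes, Parp1 (0.85), Unc45a (0.84), Nbeal2 (0.83), Dcdc2a (0.81) and Osbpl5 (0.81) were the closest. For Cldn5 the closest were Rasl10b (0.73), Hist1h1c (0.72), Tsc22d4 (0.71), Abhd17a (0.67) and Plekhj1 (0.67) over the NAc and PFC, and Cpped1 (0.87), C1qa (0.82), Dok6 (0.81), Nr2f6 (0.78) and Slco2b1 (0.77) in the SCN. No other gene of the endothelial list was among them. These are descriptions over libraries that share depth and RNA quality, with no test.

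Whole lists of cell-type genes, an alternative chosen after seeing the data, were set against Myoc in the same way. Its median r with 28 other genes of meningeal and perivascular fibroblasts was 0.65 for the PFC, 0.27 for the NAc and 0.32 for the SCN. With the astrocyte genes of the glia limitans it was 0.37 for the PFC (14 genes), 0.026 for the NAc (14 genes) and 0.59 for the SCN (16 genes), where all 16 had a positive r and 50.9% of all genes did. The median r of Myoc with all genes was between -0.014 and 0.0058. Other lists also stood above that. In the SCN red blood cell genes had 0.44 (0.50 without J1199 and J1140), and the remaining lists 0.038 to 0.26. In the PFC basement membrane genes had 0.52, PDGF genes 0.51, venous genes 0.44, smooth muscle genes 0.40 and red blood cell genes 0.38. The remaining lists had 0.16 to 0.34 there. For Dcn in the SCN the fibroblast and glia limitans lists changed places, with 0.55 for fibroblast genes and 0.048 for glia limitans genes, and with 0.29 and -0.049 without J1199 and J1140. With fibroblast genes Dcn had 0.65 for the PFC and 0.065 for the NAc, where 17 of 28 had a positive r, beside 49.5% of all genes. With the endothelial list Myoc and Dcn had a median r between 0.020 and 0.19 over all libraries of a region, and in the SCN without J1199 and J1140 that of Dcn turned from 0.14 to -0.15. Cldn5 had a median r with 22 other endothelial genes of 0.19 for the PFC, 0.26 for the SCN and 0.015 for the NAc. Of these genes 22, 17 and 12 had a positive r, beside 48.0, 49.6 and 51.5% of all genes.

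**Figure D4:**
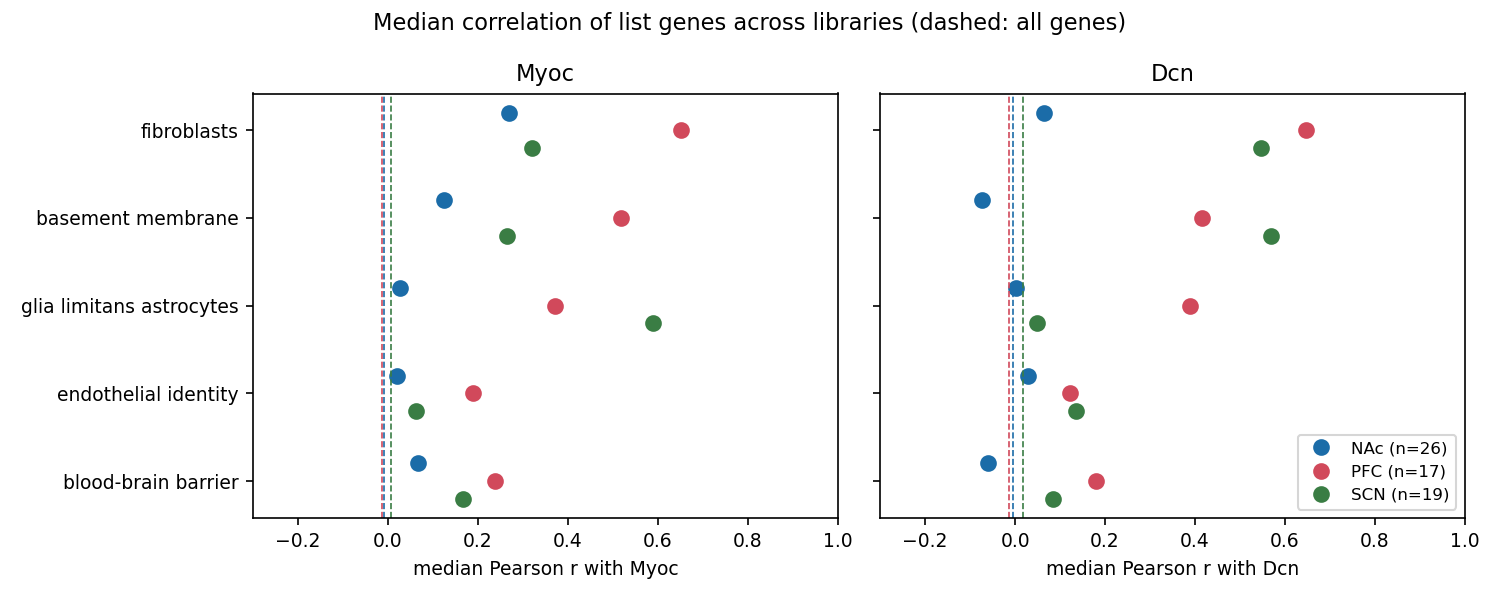
Median Pearson r of Myoc (left) and Dcn (right) with the genes of 5 lists across the libraries of each region, with dashed lines at the median over all genes. Myoc in the SCN is highest with glia limitans astrocyte genes (0.59) and in the PFC with fibroblast genes (0.65), and Dcn in the SCN is near 0 with the glia limitans list (0.048).

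The fibroblast list, of 56 genes, had 29 tested between the NAc and PFC, and 24 of them were called lower in the NAc and 2 higher, with a median of -0.86 on the log2 scale. Without Myoc and Dcn the counts were 22 lower and 2 higher of 27. Over all genes, 21.7% were called lower and 23.7% higher in the NAc. A listed gene can pass the filter on low values through the region where it is high. The counts of lower and higher genes are therefore not independent of that filter, whose part was not tested. Aldh1a2, which makes retinoic acid in the meninges, had a NAc median of 0.833 CPM and a PFC median of 6.45 CPM (-2.63 ± 0.25, edgeR adjusted p = 1.1e-12). With that NAc median, Aldh1a2 may pass such a filter mostly through the PFC. Igfbp6, a binding protein of insulin-like growth factor, had 5.74 and 29.0 CPM (-2.30 ± 0.14, adjusted p = 6.7e-19). Between the SCN and NAc, 17 of 25 tested were called higher in the SCN and 2 lower, and between the SCN and PFC 7 were called in each direction. Of all genes, 33.1% were higher and 31.0% lower in the SCN against the NAc, and 33.7 and 31.0% against the PFC. Other fibroblast markers, among them Col3a1, Lum, Slc6a13 and Slc47a1, were not analysed here. The summed level of the listed genes ran from 171 to 413 CPM for the NAc, from 300 to 804 CPM for the PFC and from 266 to 1462 CPM for the SCN. Which cells gave the counts of these genes was not tested, so the sum is not a measure of fibroblasts alone.

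Of the glia limitans list, 6 of 15 genes tested between the NAc and PFC were called lower in the NAc and 1 higher (median -0.19), and without Myoc, which is in this list and in the fibroblast list, 5 of 14 were lower and 1 higher. The share called, 46.7%, was near the 45.4% of all genes. Gfap was lower in the NAc (medians 8.89 and 30.5 CPM, -1.82 ± 0.15, edgeR adjusted p = 2.6e-14), and Id4, an inhibitor of DNA binding, was higher (90.9 and 26.6 CPM, 1.91 ± 0.14, adjusted p = 3.6e-16). Between the SCN and NAc 11 were called higher in the SCN and 3 lower, beside 33.1 and 31.0% of all genes, and Gfap had a median of 151 CPM in the SCN.

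Of 32 endothelial genes listed 23 were tested, and 6 were called, all lower in the NAc than in the PFC (median -0.16), while 17 were not called, among them Flt1, Tek and Pecam1. The share called, 26.1%, was below the 45.4% of all genes, and 21.7% of all genes were called lower in the NAc. Cd34, a surface sialomucin, had the largest difference of the list, from 28.1 CPM in the PFC to 8.40 CPM in the NAc (-1.71 ± 0.072, edgeR adjusted p = 3.2e-25), followed by Egfl7, an angiogenic factor secreted by endothelium (-0.68 ± 0.081, adjusted p = 6.3e-10) and Vwf, the von Willebrand factor (-0.50 ± 0.14, adjusted p = 0.0015). Between the SCN and the other regions the list was lower in the SCN, with 13 lower and 1 higher against the NAc (median -0.28) and 17 called against the PFC, all lower (median -0.45), where 31.0% of all genes were lower in each. The summed level of the list was 234 to 305 CPM for the NAc, 258 to 371 CPM for the PFC and 181 to 328 CPM for the SCN, so that all 3 ranges overlapped.

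Of the transporters and junctions of the blood-brain barrier, 9 of 25 were called lower in the NAc than in the PFC and 1 higher (median -0.058), beside 21.7% of all genes lower and 23.7% higher. Among them were Slc3a2, the heavy chain of amino acid transporters, at -0.71 ± 0.046 (edgeR adjusted p = 3.5e-18), Tfrc, the transferrin receptor, at -0.70 ± 0.064 (adjusted p = 2.6e-13) and Abcg2, an efflux pump, at -0.68 ± 0.083 (adjusted p = 1.1e-09). Against the NAc the SCN had 13 higher and 6 lower, beside 33.1 and 31.0% of all genes, and against the PFC 10 higher and 11 lower, beside 33.7 and 31.0%. Many genes of this list are also expressed by neurons or glia.

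Of the PDGF ligands, Pdgfd (-1.13 ± 0.15, edgeR adjusted p = 3.7e-09), Pdgfb (-0.73 ± 0.078, adjusted p = 3.5e-11) and Pdgfa (-0.68 ± 0.087, adjusted p = 4.2e-09) were lower in the NAc than in the PFC. In all, 4 of 6 ligands and receptors were called, all lower, while Pdgfra and Pdgfrb were not. That was 66.7% called, beside 45.4% of all genes, with 21.7% of all genes called lower. Of 10 genes tested of the VEGF and angiopoietin list, Angpt1, the activating ligand of TIE2, was lower in the NAc (medians 1.31 and 5.08 CPM, -1.66 ± 0.23, adjusted p = 2.0e-08), the co-receptor Nrp1 was lower (-0.36 ± 0.12, adjusted p = 0.0096) and Nrp2 was higher (0.41 ± 0.16, adjusted p = 0.026). The other 7, with the receptors Flt1, Kdr, Tek and Tie1, were not called. The share of this list called, 30.0%, was below the 45.4% of all genes.

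Of the mural lists, 10 of 20 pericyte genes were tested, with 2 called higher in the NAc (Mcam at 1.01 ± 0.12, edgeR adjusted p = 2.2e-10, and Notch3 at 0.37 ± 0.11, adjusted p = 0.0042) and 2 lower (Cd248 at -0.73 ± 0.15, adjusted p = 5.1e-05, and Vtn). Of 7 smooth muscle genes 3 were called, all lower, led by Acta2, smooth muscle actin, with a NAc median of 4.01 CPM and a PFC median of 8.79 CPM (-1.13 ± 0.16, adjusted p = 2.3e-08), then Myl9 (-0.52 ± 0.16, adjusted p = 0.0032) and Tagln (-0.48 ± 0.20, adjusted p = 0.031). Of 12 basement membrane genes 3 were lower and 2 higher, with Lamb1 at 1.32 ± 0.099 (adjusted p = 3.8e-16), Lama4 at -0.82 ± 0.11 (adjusted p = 5.2e-09) and Lamc3 at -0.70 ± 0.18 (adjusted p = 0.00059). The shares called, 4 of 10 pericyte genes, 42.9% of smooth muscle and 41.7% of basement membrane genes, were near the 45.4% of all genes.

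**Figure D5:**
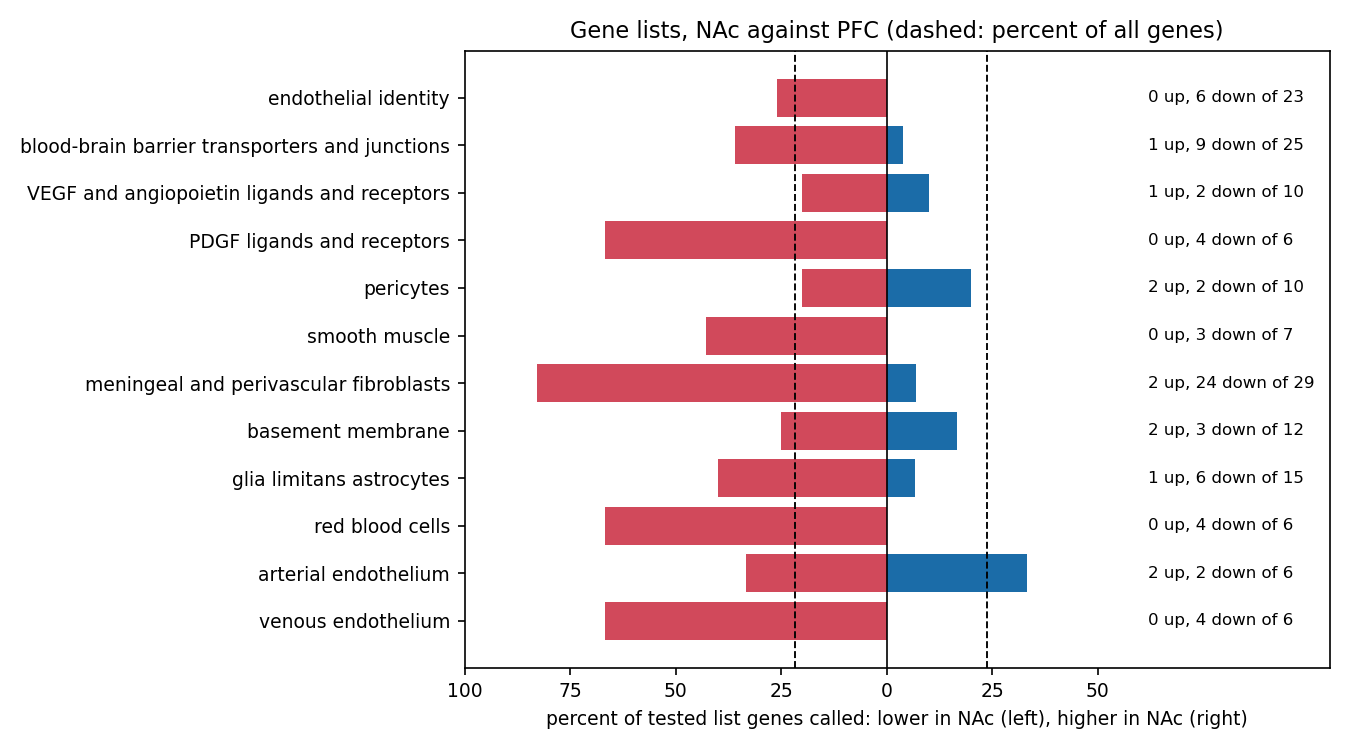
Percent of the tested genes of each list that were called lower (left, red) or higher (right, blue) in the NAc than in the PFC, with the counts at the right and dashed lines at the percentages of all genes (21.7 and 23.7%). The fibroblast list has 24 of 29 genes lower in the NAc, and the endothelial list 6 of 23.

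Some genes of other cells at the surface and in vessels were also lower in the NAc than in the PFC, while others were higher. Their part in the difference of Myoc and Dcn was not tested. Few genes of each list were tested. Over all genes 45.4% were called, 21.7% as lower and 23.7% as higher in the NAc. All 3 perivascular macrophage genes tested of 11 were lower in the NAc, with Mrc1, the mannose receptor, at -1.30 ± 0.12 (edgeR adjusted p = 8.4e-13), Dab2 at -0.61 ± 0.096 (adjusted p = 3.5e-07) and Stab1 at -0.46 ± 0.086 (adjusted p = 8.5e-06). Their summed level was 8.30 to 15.2 CPM for the NAc, 15.8 to 37.4 CPM for the PFC and 9.81 to 33.4 CPM for the SCN. Of 6 genes tested of the venous endothelial list 4 were called, all lower by edgeR (Car4 at -1.08 ± 0.063, Nr2f2 at -1.04 ± 0.11 and Ephb4 at -0.57 ± 0.095 among them, adjusted p from 6.8e-20 to 1.1e-06). Nr2f2 had medians of 3.17 CPM for the NAc, 7.24 CPM for the PFC and 45.8 CPM for the SCN, where the endothelial list was lower. Which cells gave its counts was not tested. Of 6 arterial genes 2 were lower (Mgp at -1.56 ± 0.20, adjusted p = 5.8e-09, and Stmn2 at -1.45 ± 0.18, adjusted p = 1.7e-09, a gene that neurons express) and 2 were higher (Efnb2 at 0.59 ± 0.043, adjusted p = 2.0e-16, and Jag1).

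Hemoglobin genes of red blood cells, Hba-a1 (-0.71 ± 0.22, edgeR adjusted p = 0.0057) and Hba-a2 (-0.94 ± 0.26, adjusted p = 0.0016), were lower in the NAc than in the PFC. Their median levels were 11.5 and 7.34 CPM for the NAc, 14.6 and 10.7 CPM for the PFC and 76.9 and 59.5 CPM for the SCN. Of the choroid plexus list only Clic6 (5.26 ± 0.21, adjusted p = 2.9e-26, higher in the NAc) and Enpp2 (-0.50 ± 0.070, adjusted p = 3.5e-08) were tested, and Ttr and other defining genes were not analysed here. Clic6 had a median of 5.69 CPM in the NAc and of 0.132 CPM in the PFC, where its highest level was 0.390 CPM. Between these regions it thus passes a filter on low values through the NAc, and the size of its difference rests on PFC values near 0. The 10 ependymal genes had rows only in the SCN table, with a summed level of 19.2 to 162 CPM.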

How the data were processed

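The authors punched each region from frozen brain on a cryostat, isolated RNA with a column kit, made SmartSeq libraries from 10 ng and sequenced 75 bp paired ends. Per the labels and the study's methods they used FastQC 0.11.7, HISAT2 2.1.0 on Ensembl GRCm38 and HTSeq 0.10.0 in union mode, and the deposited values are raw counts per gene, in a table for the NAc and PFC (11569 rows) and another for the SCN (12047 rows), after a filter on low values and removal of the Y chromosome. Strand of counting is not given in the sources used here.

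The members and gene lists were chosen with earlier results of these data known. Groups are the regions in the labels, and the libraries of a region come from separate mice, while libraries of different regions share mice (17 mice for the NAc and PFC, 12 for all 3 regions). Counts were fitted with edgeR 4.0.16 (R 4.3.3; TMM, quasi-likelihood test), NAc and PFC on their own table and the SCN in a joint fit of the 11133 shared rows. Calls required a fold change of 1.2 or more and a p below 0.05 after Benjamini-Hochberg adjustment. Intervals are 1.96 SE. Relations used log2 CPM (prior count 2) and two-sided permutation tests with 100000 resamples (smallest p 1e-05; exact with 7 libraries), adjusted within each family, with scipy 1.17.1, numpy 2.4.6, pandas 2.3.3 and Python 3.11.15. Ratios used a pseudocount of 0.5. Figures were drawn with matplotlib 3.10.9.

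Named were the 8 members, the 3 called genes of each of 15 lists with the largest change between the NAc and PFC, and the 5 genes most like Cldn5, Myoc and Dcn. Other named genes complete a count and were chosen after their values were seen. On simulated counts with 2-fold changes the NAc and PFC fit recovered 198 of 200 changed genes and called 10 unchanged ones. The SCN and NAc fit recovered 200 of 200 and called 7 unchanged ones. Smaller changes, such as those of Cldn5 and Vtn, and mice shared between regions were not simulated. No 2 libraries held identical counts. Mouse numbers pair libraries of the same animal: deviations of the NAc and PFC libraries of a mouse correlated with a median r of 0.0061 (-0.45 to 0.27). Alternatives were DESeq2 1.42.0, its size factors, filters, the mouse as a block, mice up to J1021 or from J1140, omission of ribosomal genes or libraries, and, chosen after seeing the data, the percentage of mitochondrial ribosomal RNA as a covariate, the Flt1 relations, the relations to that percentage, and the omission of NAc J1199 and, in relations and lists, of SCN J1199 and J1140.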

Additional observations from a re-analysis of the deposited data

How the results depend on the processing

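Between 4650 and 5743 genes were called for the NAc against the PFC, 6682 to 7405 for the SCN against the NAc and 6902 to 7465 for the SCN against the PFC under all alternatives, DESeq2 included, within 1.5 times of 5254, 7135 and 7201. The calls of Cldn5, Vtn, Myoc and Dcn for the NAc against the PFC held under every alternative that gave a value, and Myoc and Dcn had none where CPM had to exceed 1 in every library. In each case below the cause was not tested. The values are log2 differences.

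With the mouse as a block, the NAc minus PFC difference of Flt1 was -0.081 (-0.085 in the same mice without it), the SCN minus PFC difference of Cldn5 was -0.25 (-0.25 without it) and of Myoc -1.10, and the block changed no other call of a member. Among mice up to J1021 the NAc minus PFC differences were -0.17 for Flt1, -0.46 for Tek and -0.28 for Pdgfrb, the last 2 then called. Among mice from J1140 they were 0.026 for Pecam1 and 0.11 for Pdgfrb, which was 0.0034 with the mitochondrial covariate.

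For the SCN minus the NAc, Tek lost its call with CPM above 1 (-0.26), from J1140 (-0.18) and when only those 2 regions were fitted (-0.26), and Dcn lost it up to J1021 (0.36). Cldn5 was -0.0017 without SCN J1199 and J1140, and Pecam1 was -0.33 with the covariate. Among list genes, signs turned for Tfrc with the covariate (0.033), for Abcg2 (-0.074), Mcam (0.11) and Tagln (-0.67) up to J1021, for Lamc3 from J1140 (0.032), for Tagln without SCN J1199 and J1140 (-0.18) and for Mcam with only 2 regions fitted (0.0040).

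For the SCN minus the PFC, calls were lost for Cldn5 up to J1021 (-0.28) and with the covariate (-0.21), and from J1140 for Flt1 (-0.33), Tek (-0.24) and Vtn (-0.29). Pecam1 was called with the covariate (-0.37), and Dcn was 0.16 from J1140. With the covariate Angpt1 (-0.033), Nrp1 (-0.17) and Tagln (0.21) turned sign, as did Ephb4 up to J1021 (-0.017).

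Of the 24 relations between members, 0 passed up to J1021 (permutation test), and 5 of the 9 Flt1 relations passed after the mitochondrial line was taken off. Of those with mitochondrial ribosomal RNA 3 passed up to J1021 and 1 from J1140. With single genes in place of sums, the median log2 ratio in the NAc was -5.47 for Myoc over Cldn5 and -2.58 for Dcn over Cldn5, and in the PFC -0.39 and -1.88, so that the regions lay closer for Dcn over Cldn5 than for the sums. Depth limits Myoc in the NAc, where 11 of 26 libraries held 3 counts or fewer.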

Other observations

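The genes most like Flt1, taken after values were seen, were Zfp106 (r = 0.94), Cux1 (0.93) and Ptprb (0.92), a phosphatase of endothelium, over the NAc and PFC libraries with region means taken off (n = 43). In the SCN the 100 genes most like Flt1 had a median exon length of 7840 bp, and the 100 most like Cldn5 one of 2824.5 bp. Log2 Cldn5 over Flt1 within libraries had a median of -1.60 for the NAc, -1.21 for the PFC and -0.90 for the SCN, and the 3 ranges overlapped.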
